A study of Mus musculus with 48 samples.

Results

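The lysosomal genes described here are 33 mouse genes, out of 55471 genes counted, that encode the enzymes, membrane proteins, proton pump subunits and a master regulator of the lysosome. They were listed by symbol and not by a cut on their values, but with earlier results of these data known. All 33 were found in the files. By role they comprise 7 cysteine proteases, namely the cathepsins Ctsb, Ctsc, Ctsh, Ctsl, Ctss and Ctsz and the legumain gene Lgmn. There are 3 other proteases (Ctsa, Ctsd and Tpp1) and 8 glycosidases (Hexa, Gusb, Gla, Glb1, Gaa, Man2b1, Naglu and Neu1). A further 6 handle lipids or act as activators and precursors (Lipa, Npc1, Npc2, Ppt1, Psap and Grn), 5 are membrane proteins (Lamp1, Lamp2, Cd63, Scarb2 and Mcoln1), 3 are subunits of the proton pump (Atp6v0d1, Atp6v0d2 and Atp6v1h), and Tfeb is a transcription factor. All 33 passed the filter on low counts in each of the 9 comparisons made.

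Gene counts came from 48 mRNA libraries of mouse epididymal white adipose tissue (eWAT), the fat pad beside the testis, and of macrophages from it, labelled CD64+, CD11b+ and F4/80+. The labels name wild type animals and knockouts of TXNIP, a protein that restrains glucose uptake, in adipose tissue, fed a control or a ketogenic diet, a diet rich in fat and poor in carbohydrate. Each genotype label had 7 eWAT and 6 macrophage-labelled libraries on the control diet, and 8 and 3 on the ketogenic diet. The labels name neither the promoter behind the adipose-specific deletion nor the age of the animals, and do not say that each library came from its own animal, so the p-values measure the spread between these libraries.

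Lysosomes are acidic compartments in which proteins, sugar chains, nucleic acids and lipids are taken apart. The vacuolar proton pump acidifies them, cathepsins cut proteins, glycosidases trim sugar chains, and the transcription factor TFEB raises many lysosomal genes together through a short promoter element when it enters the nucleus during starvation or lysosomal stress. In adipose tissue, lysosomal acid lipase and other lysosomal enzymes are used both by adipocytes during lipophagy and by macrophages that take up lipid released from adipocytes.

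Gene counts ran from 17.4 to 59.8 M per eWAT library and from 36.9 to 59.7 M per macrophage-labelled library, and levels are in CPM, the counts of a gene scaled by TMM to a common library size within a tissue. Title prefixes divide the libraries into 1 set per tissue and diet, so an effect of diet and one of the library set cannot be told apart. Depth moved with diet as well: wild-type-labelled eWAT libraries held 34.7 to 59.8 M gene counts on the control diet and 17.4 to 25.1 M on the ketogenic diet. Txnip went against its label, at 1508 to 1980 CPM in control-diet eWAT libraries labelled wild type and 2185 to 3016 CPM in those labelled knockout, so genotype is named below as a label. Gm11868, a gene picked after its values were seen, separated the genotype labels in all eWAT and all control-diet macrophage-labelled libraries, at no more than 1.32 CPM in those labelled wild type and no less than 3.51 CPM in those labelled knockout. In the ketogenic macrophage-labelled libraries, wild type 1 and 2 and knockout 2 and 3 were at the level of the other label. The macrophage label was not borne out by marker genes: 15 macrophage markers summed to 440 to 1869 CPM in macrophage-labelled libraries against 924 to 2364 CPM in whole eWAT, and none was at 0. The 10 endothelial markers summed to 9221 to 11020 CPM against 1087 to 1592 CPM, and the 10 dissociation-stress genes to 34050 to 43320 CPM against 133 to 283 CPM.

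**Figure D1:**
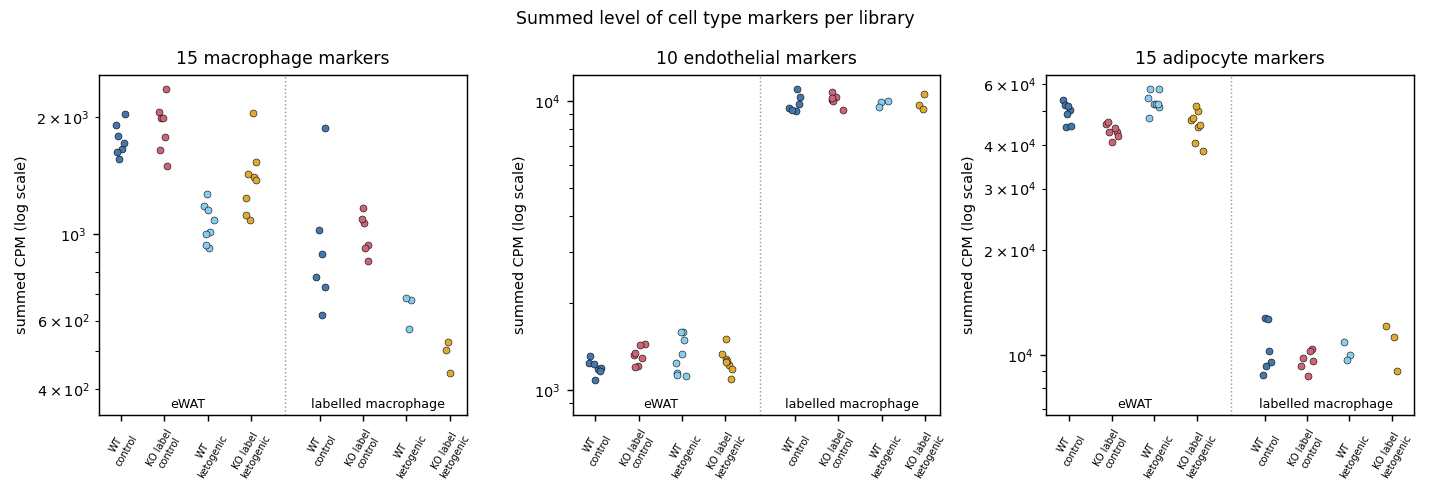
Summed level of macrophage, endothelial and adipocyte marker genes in each library (points), in CPM on a log scale, by tissue label, genotype label and diet. Macrophage markers were lower in wild-type-labelled ketogenic eWAT (924 to 1266 CPM) than in any wild-type-labelled control-diet eWAT library (1564 to 2033 CPM), and endothelial markers were at 9221 CPM or more in every macrophage-labelled library.

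The 33 genes together summed to 8172 to 10010 CPM in wild-type-labelled eWAT on the control diet (median 9535). On the ketogenic diet they summed to 7307 to 8639 CPM (median 7871). In libraries labelled knockout the range was 8985 to 10730 CPM on the control diet (median 9559) and 7743 to 9506 CPM on the ketogenic diet (median 8398). These are sums of TMM-scaled levels and not shares of the counts of a library. The summed level of the set thus overlapped between the diets, in either label, and was lower by its median on the ketogenic diet. In macrophage-labelled libraries it ran from 6698 to 8015 CPM over all 4 groups.

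Scaled by transcript length, the most abundant member in wild-type-labelled control-diet eWAT was Psap, the precursor of the saposins that present glycolipids to their hydrolases, at 647 ± 53.3 CPM per kb (SD, n = 7). It was followed by Ctsb at 432 ± 32.4 CPM per kb, Lamp1, the major glycoprotein of the lysosomal membrane, at 333 ± 21.0, Ctsl at 282 ± 26.7 and the aspartic protease Ctsd at 206 ± 32.8. The ranges of neighbours in this order did not overlap from Psap to Lamp1 (Psap 556 to 712, Ctsb 370 to 460, Lamp1 308 to 362 CPM per kb), whereas those of Ctsl and Ctsd did. At the other end were Npc1 at 11.1 ± 0.636 CPM per kb, Tfeb at 3.76 ± 0.867, Gla, the alpha-galactosidase, at 3.68 ± 0.5003 and Atp6v0d2 at 2.74 ± 2.83, and the ranges of the last 3 overlapped.

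In wild-type-labelled control-diet macrophage-labelled libraries Psap also led, at 758 ± 75.8 CPM per kb (SD, n = 6), followed by Ctsl at 286 ± 16.96, Lamp1 at 230 ± 9.96 and Ctsb at 210 ± 20.5. Set beside whole eWAT, 14 of 33 members were higher in the macrophage-labelled libraries, against 53.4% of 14909 genes. Npc2, a cholesterol carrier of the lysosome lumen, was at 0.215 times its eWAT level and Ctsc, which activates granule proteases of immune cells, at 0.259 times. Tfeb was at 5.93 times, the sialidase Neu1 at 3.69 times and the calcium channel gene Mcoln1 at 2.23 times their eWAT level. Kits, RNA input (500 ng against 1 to 5 ng) and strand handling differed between the tissue labels, so these ratios are given without a test.

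**Figure D2:**
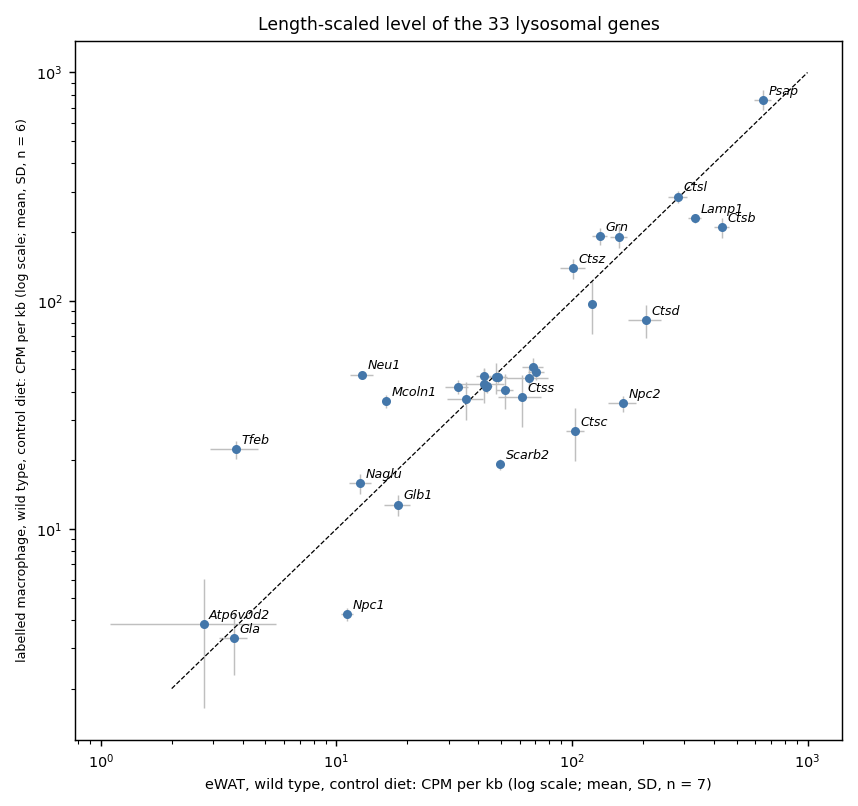
Level of the 33 lysosomal genes per kb of transcript in wild-type-labelled control-diet libraries, whole eWAT (x, mean and SD, n = 7) against macrophage-labelled (y, mean and SD, n = 6), both in CPM per kb on log scales; the lower bar of Atp6v0d2 is shortened, since its SD exceeds its mean in eWAT and a log axis has no 0. The dashed line marks equal levels, with Tfeb, Neu1 and Mcoln1 well above it and Npc2, Ctsc, Npc1 and Scarb2 below.

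TFEB is known to bind the letters CACGTG within a longer element, and the promoters of the members were searched for it because many members moved together with diet. RefSeq promoters (GRCm38.p6, from 250 bases before to 50 after the start) were found for 28 of 33 members. CACGTG, which reads the same on both strands, was in 11 of these 28 (39.3%), against 8.09% of the 27025 genes with a promoter in that table. The longer TCACGTGA, which contains it, was in 5 of 28 (17.9%) against 1.12%, and the palindromic 10-base consensus known as the CLEAR element, which contains both, was in 0 of 28 against 0.37%. Lamp1 held 4 CACGTG within its 100 bases before the start, and Mcoln1, Ctsd, Ctsa and Gla held 2 in the whole promoter. The 100 bases before the start follow, 5′ to 3′ on the gene's strand with CACGTG in capitals, for members that carry the diet and genotype results below (Mcoln1, chr8:3500419-3500518, plus strand; Ctsd, chr7:142387828-142387927, minus strand; Naglu, chr11:101069994-101070093, plus strand; Glb1, chr9:114400978-114401077, plus strand), for Lamp1 (chr8:13159061-13159160, plus strand), which has most copies, and for Scarb2 (chr5:92505658-92505757, minus strand), which has none and moved the other way with diet.
Mcoln1: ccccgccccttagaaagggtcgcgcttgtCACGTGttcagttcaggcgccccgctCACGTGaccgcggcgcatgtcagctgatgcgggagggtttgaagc
Ctsd: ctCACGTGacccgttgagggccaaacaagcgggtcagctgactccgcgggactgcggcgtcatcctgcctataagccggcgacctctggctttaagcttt
Naglu: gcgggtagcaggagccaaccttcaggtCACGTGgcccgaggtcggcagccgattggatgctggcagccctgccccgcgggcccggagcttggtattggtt
Glb1: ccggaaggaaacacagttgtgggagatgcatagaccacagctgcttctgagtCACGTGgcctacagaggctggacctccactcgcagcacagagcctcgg
Lamp1: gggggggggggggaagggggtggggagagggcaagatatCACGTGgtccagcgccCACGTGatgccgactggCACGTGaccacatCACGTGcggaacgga
Scarb2: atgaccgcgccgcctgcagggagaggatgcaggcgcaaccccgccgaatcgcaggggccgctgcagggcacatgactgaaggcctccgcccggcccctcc
A match is a description of these letters, not of binding. The starts are those of RefSeq. By the gene positions given below, the windows of Ctsd and Scarb2 lie inside the gene, and those of Mcoln1 and Naglu partly so. Scarb2 is a single picked example: of 17 members without the letters 10 fell and 2 rose with diet in the wild-type label.

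Of the lysosomal genes of eWAT that were called on the ketogenic diet, more fell than rose in either label. In libraries labelled wild type 19 of 33 members fell and 3 rose, where 27% of the 15569 genes tested fell and 26.8% rose (53.8% in all). In libraries labelled knockout 16 fell and 3 rose, where 19.7% of 16483 genes fell and 19.8% rose (39.5% in all). The median log2 fold change of the members, ketogenic over control, was -0.25 in the wild-type label against -0.01 over all genes, and -0.19 in the knockout label against -0.02. With an offset for GC content, described below, the medians of the members were -0.15 and -0.18. The labels shared 12 members that fell in both (Ctsc, Ctsh, Ctsz, Ctsa, Ctsd, Hexa, Glb1, Man2b1, Grn, Cd63, Mcoln1 and Atp6v0d1) and 2 that rose in both (Scarb2 and Npc1). Of these 12, 5 fell in both labels with the GC offset (Ctsc, Ctsa, Ctsd, Man2b1 and Grn), and both rises held. The offset also called Tpp1, Naglu, Ppt1 and Lamp2 lower in both labels. How many of all genes fell or rose in both labels was not counted, so these shared counts have no background beside them. Libraries of the diets did not overlap for 12 falling members in the wild-type label, where 15.2% of all genes fell without overlap, and for 9 in the knockout label, where 6.59% did. Rising without overlap was seen for 0 members and 6.47% of genes in the wild-type label, and for 1 member, Scarb2, and 5.94% of genes in the knockout label. Overlap was read from CPM scaled over all eWAT libraries, whereas fold changes came from TMM within the groups compared. In the wild-type label the CPM of Mcoln1 and Lamp1, given below, fell further than their fitted changes. Such a shift favours falls without overlap over rises. An unadjusted p under 0.05 was found for 24 members in the wild-type label, against 58.8% of genes. In whole tissue, fewer cells of a type and less RNA per cell cannot be told apart.

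**Figure D3:**
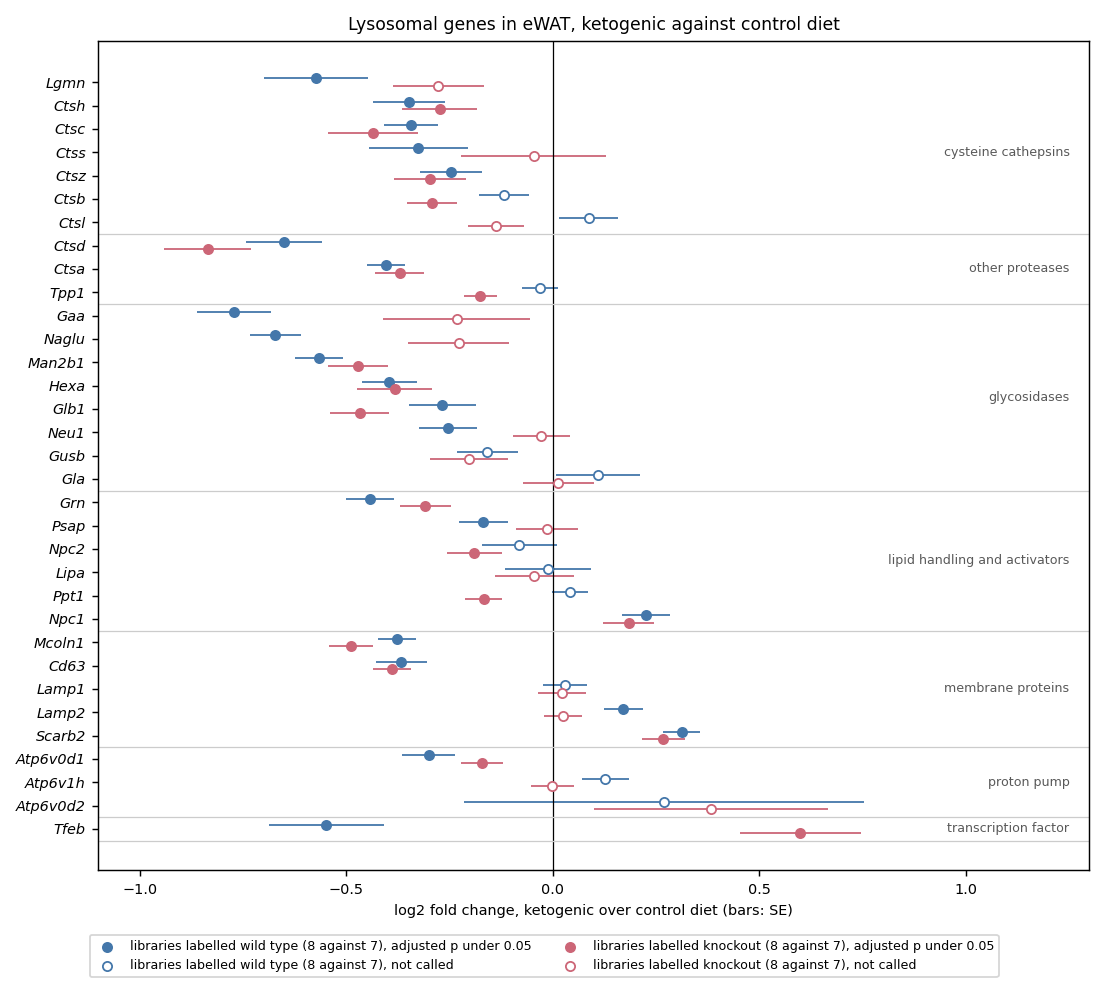
Log2 fold change of each lysosomal gene in eWAT, ketogenic over control diet, in libraries labelled wild type (blue) and knockout (red), with SE bars and the genes grouped by role; filled points have an edgeR adjusted p under 0.05. Most points lie left of 0, Scarb2 and Npc1 lie right of it in both labels, and Tfeb is called on opposite sides.

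Among the cysteine proteases was the dipeptidyl peptidase gene Ctsc. In the wild-type label it was at 228, 247 and 291 CPM (lowest, median and highest library) on the control diet. On the ketogenic diet it was at 170, 183 and 220 CPM. The diets did not overlap, and Ctsc fell by 0.34 ± 0.07 on the log2 scale (edgeR adjusted p = 0.00033). Ctsb, the most abundant cathepsin, was at 1988, 2209 and 2501 CPM on the control diet and at 1577, 1740 and 1986 CPM on the ketogenic diet in the knockout label, without overlap, and fell by 0.29 ± 0.06 (edgeR adjusted p = 0.0011). In the wild-type label the diets overlapped for Ctsb, at 1754 to 2181 CPM against 1602 to 1982 CPM, and the change of -0.12 was not called. Lgmn, the asparaginyl endopeptidase legumain that processes cathepsins, was at 105 to 183 CPM against 64.5 to 102 CPM in the wild-type label, without overlap. It was at 109.5 to 161 CPM against 77.1 to 136 CPM in the knockout label, where the groups overlapped and the adjusted p was 0.057 (edgeR). Ctss, the cathepsin of antigen-presenting cells, was called lower in the wild-type label only, at 70.2 to 121 CPM against 48.6 to 77.3 CPM, and lost the call without ketogenic library 2, 4 or 5. The difference between the labels did not pass the test (0.32, edgeR adjusted p = 0.41). Ctsl was called in neither.

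Of the other proteases, Ctsd fell most (ENSMUSG00000007891.16, chr7:142375911-142388038, minus strand), the main aspartic protease of lysosomes. In the wild-type label it was at 315, 445 and 530 CPM on the control diet and at 224, 256 and 290.0 CPM on the ketogenic diet, and in the knockout label at 380, 400.3 and 628 CPM against 224, 252 and 295 CPM. The diets did not overlap in either label. Ctsd fell by 0.65 ± 0.09 (edgeR adjusted p = 1.55e-05) and by 0.84 ± 0.11 (edgeR adjusted p = 1.45e-05). Ctsa, a carboxypeptidase that also protects the galactosidase GLB1 and the sialidase NEU1, was at 133 to 165 CPM against 102 to 115 CPM in the wild-type label and at 133 to 177 CPM against 103 to 129 CPM in the knockout label. It fell by 0.40 ± 0.05 (edgeR adjusted p = 1.35e-06) and by 0.37 ± 0.06 (edgeR adjusted p = 0.000125), without overlap in either. Tpp1, a tripeptidyl peptidase, fell in the knockout label by 0.18 ± 0.04 (edgeR adjusted p = 0.0021), from 148 to 176 CPM on the control diet to 129 to 147 CPM. It was not called in the wild-type label (-0.03), but was called lower there with the GC offset (-0.16, edgeR adjusted p = 0.010).

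Of the 8 glycosidases, 6 fell in the wild-type label (Hexa, Glb1, Gaa, Man2b1, Naglu and Neu1) and 3 in the knockout label (Hexa, Glb1 and Man2b1). Gaa, which breaks down glycogen in lysosomes, was at 87.0, 124 and 148 CPM on the control diet and at 58.4, 64.5 and 74.9 CPM on the ketogenic diet in the wild-type label, without overlap, and fell by 0.77 ± 0.09 (edgeR adjusted p = 2.04e-06). Its control-diet libraries labelled knockout alone spanned 51.5 to 148 CPM, which overlapped the ketogenic range of 59.2 to 86.0 CPM. Naglu (ENSMUSG00000001751.9, chr11:101070012-101077672, plus strand), an enzyme of heparan sulfate breakdown, was at 27.0, 32.2 and 37.5 CPM against 17.2, 18.8 and 20.5 CPM in the wild-type label. These did not overlap, and Naglu fell by 0.67 ± 0.06 (edgeR adjusted p = 1.87e-07), the lowest adjusted p among the members in that comparison. Under the knockout label Naglu was at 17.2 to 36.2 CPM on the control diet and 18.6 to 22.0 CPM on the ketogenic diet, and the change of -0.23 was not called. With the GC offset Naglu was called lower there (-0.29, edgeR adjusted p = 0.0023). Man2b1, the lysosomal alpha-mannosidase, was at 176 to 226 CPM against 109 to 137 CPM in the wild-type label and at 169 to 239 CPM against 119 to 158 CPM in the knockout label. It fell without overlap in both, by 0.56 ± 0.06 (edgeR adjusted p = 5.48e-07) and by 0.47 ± 0.07 (edgeR adjusted p = 8.87e-05). Hexa, the alpha chain of the hexosaminidase that degrades gangliosides, fell by 0.40 ± 0.07 (edgeR adjusted p = 8.80e-05) and by 0.38 ± 0.09 (edgeR adjusted p = 0.0029). Glb1, the beta-galactosidase, was at 41.7 to 58.1 CPM on the control diet and 29.7 to 39.0 CPM on the ketogenic diet in the knockout label, where it fell by 0.47 ± 0.07 (edgeR adjusted p = 7.87e-05). Gla and Gusb were called in neither label.

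Among genes of lipid handling and activators the directions differed. Grn, the precursor of the granulins, was at 271, 309 and 342 CPM on the control diet and at 187, 208 and 232 CPM on the ketogenic diet in the wild-type label, without overlap, and fell by 0.44 ± 0.06 (edgeR adjusted p = 6.06e-06). Under the knockout label it was at 248 to 320 CPM against 198 to 253 CPM and fell by 0.31 ± 0.06 (edgeR adjusted p = 0.00094), with overlapping libraries. Npc1, the membrane protein that exports cholesterol from lysosomes, rose by 0.23 and 0.18, from 54.0 to 64.7 CPM to 55.5 to 69.5 CPM and from 56.3 to 69.6 CPM to 59.8 to 75.0 CPM, so its libraries overlapped in both labels. The call in the knockout label was lost without control-diet library 1, 2 or 3 or ketogenic library 6. Its partner Npc2 was called lower in the knockout label, a call lost without control-diet library 1, 3, 4 or 6 or ketogenic library 7 or 8. Lipa, the lysosomal acid lipase that frees fatty acids and cholesterol, was called in neither: its levels were 99.7 to 183 CPM against 104 to 134 CPM and 130.5 to 181 CPM against 114 to 182 CPM. Psap fell in the wild-type label, with libraries at 1478 to 1891 CPM against 1281 to 1578 CPM. Ppt1, a palmitoyl-protein thioesterase, fell in the knockout label, at 109 to 134 CPM against 96.8 to 106.0 CPM. With the GC offset Ppt1 was called lower in the wild-type label too (-0.16, edgeR adjusted p = 0.015).

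The membrane proteins divided by direction. Mcoln1 (ENSMUSG00000004567.16, chr8:3500457-3515232, plus strand), the lysosomal calcium channel mucolipin, was at 32.2, 34.1 and 34.9 CPM on the control diet and at 22.1, 23.7 and 26.1 CPM on the ketogenic diet in the wild-type label. In the knockout label it was at 30.1, 33.8 and 36.0 CPM against 20.3, 23.2 and 25.0 CPM. Every ketogenic library was below every control-diet library of its label, and Mcoln1 fell by 0.38 ± 0.05 (edgeR adjusted p = 2.66e-06) and by 0.49 ± 0.05 (edgeR adjusted p = 4.00e-06). Cd63, a tetraspanin of late endosomes and lysosomes, was at 152, 168 and 195 CPM against 106, 121 and 131 CPM, and at 170.5, 181 and 186 CPM against 123, 134 and 149 CPM. It fell by 0.37 ± 0.06 (edgeR adjusted p = 7.88e-05) and by 0.39 ± 0.05 (edgeR adjusted p = 7.63e-06), again without overlap. Scarb2 (ENSMUSG00000029426.8, chr5:92441314-92506833, minus strand), the receptor that carries glucocerebrosidase to lysosomes, was the opposite case, at 221, 230.4 and 251 CPM against 248, 263 and 298 CPM in the wild-type label and at 229, 261 and 278 CPM against 284, 301 and 335 CPM in the knockout label. It rose by 0.31 ± 0.04 (edgeR adjusted p = 1.67e-05), where the lowest ketogenic library lay just below the highest control-diet library, and by 0.27 ± 0.05 (edgeR adjusted p = 0.00066), where the diets did not overlap. Lamp1 was called in neither label, at 642 to 744 CPM on the ketogenic diet and 686 to 808 CPM on the control diet in the wild-type label.

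**Figure D4:**
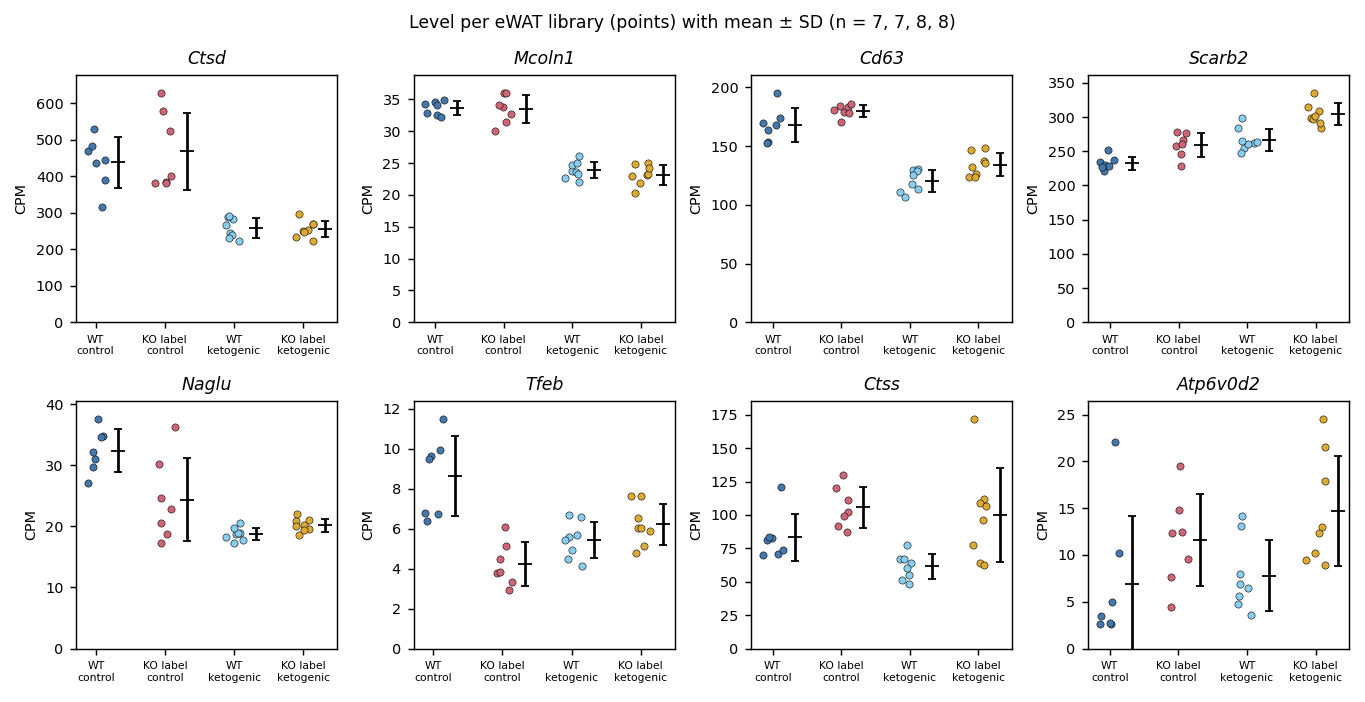
Level of 8 lysosomal genes in each eWAT library (points, in CPM) by genotype label and diet, with mean ± SD (n = 7, 7, 8 and 8). Ctsd, Mcoln1 and Cd63 were lower on the ketogenic diet in both labels, Scarb2 was higher, and Tfeb was lowest in control-diet libraries labelled knockout; the lower SD bar of Atp6v0d2 is cut at 0.

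Of the proton pump subunits, Atp6v0d1, the widely expressed d subunit of the membrane sector, was at 101 to 126 CPM on the control diet against 77.2 to 104 CPM in the wild-type label and fell by 0.30 ± 0.06 (edgeR adjusted p = 0.00077). It fell in the knockout label from 87.5 to 109 CPM to 76.4 to 89.6 CPM, with overlap. Its isoform Atp6v0d2, known from osteoclasts and some macrophages, was low and uneven, at 2.63 to 22.1 CPM and 3.54 to 14.1 CPM in the wild-type label, and was not called. Tfeb (ENSMUSG00000023990.18, chr17:47737030-47792419, plus strand) differed between the labels. In the wild-type label it was at 6.41, 9.50 and 11.5 CPM on the control diet and at 4.15, 5.51 and 6.71 CPM on the ketogenic diet, a fall of 0.55 ± 0.14 (edgeR adjusted p = 0.0031). In the knockout label it was at 2.93, 3.83 and 6.09 CPM against 4.78, 6.04 and 7.63 CPM, a rise of 0.60 ± 0.15 (edgeR adjusted p = 0.0038). The diets overlapped in both labels.

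Macrophage markers moved with diet beside these genes. In eWAT 13 of 15 fell in the wild-type label and 8 of 15 in the knockout label, none rose, and their summed level was 1564 to 2033 CPM on the control diet against 924 to 1266 CPM, and 1501 to 2364 CPM against 1085 to 2046 CPM. Fcer1g, the signalling chain of Fc receptors, fell by 1.19 and 0.95 on the log2 scale. B cell markers fell as well, 9 of 10 and 8 of 10. Of 10 endothelial markers 5 rose and 1 fell in the wild-type label, and 0 rose and 1 fell in the knockout label. Of 15 adipocyte markers 5 rose and 4 fell, and 2 rose and 4 fell. Of 8 mesothelial markers 4 and 0 fell and none rose. Of 9 progenitor and fibroblast markers 1 rose and 1 fell, and 3 rose and 1 fell. The part of these cell types in the fall of the lysosomal genes was not tested.

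The change of the members also moved with the GC content of their transcripts, which ran from 38.7% (Lamp2) to 60.7% (Tfeb) with a median of 51.8%. Over the 33 members Spearman's rho between GC content and the diet change was -0.75 in the wild-type label and -0.41 in the knockout label, and over all genes it was -0.55 and -0.17. These are correlations across genes, which share libraries and are not independent. Each fit was repeated with an offset, per gene and library, from a smooth of counts on GC content, after which rho over the members was 0.01 and -0.26. The offset takes out trends with GC content by construction, whatever their source, so the smaller rho is not a finding. A change with diet or genotype label that goes with GC content would be taken out as well. With this offset 13 members fell and 2 rose in the wild-type label, where 18.9% of genes fell and 19.9% rose, and 12 of the 22 calls held. Those were Naglu, Man2b1, Ctsa, Gaa, Grn, Ctsd, Ctsc, Lgmn, Ctsh and Ctss, which fell, and Scarb2 and Npc1, which rose. Several were smaller with the offset: Naglu fell by 0.32 in place of 0.67, Gaa by 0.42 in place of 0.77, and Ctsd by 0.37 in place of 0.65. Man2b1 fell by 0.36 in place of 0.56, Ctsa by 0.18 in place of 0.40, and Grn by 0.15 in place of 0.44. Scarb2 rose by 0.16 in place of 0.31, whereas the fall of Ctsc was 0.58 in place of 0.34 and that of Ctss 0.49 in place of 0.33. Mcoln1 (-0.09, edgeR adjusted p = 0.17), Cd63 (-0.11, edgeR adjusted p = 0.15) and Hexa (-0.15, edgeR adjusted p = 0.073) were no longer called, nor were Atp6v0d1, Tfeb, Neu1, Ctsz, Glb1 and Psap. Lamp2, a membrane glycoprotein needed for autophagy, turned from a rise of 0.17 to a fall of 0.21. Tpp1 and Ppt1 were called lower with the offset only, each by 0.16. In the knockout label 16 members fell and 3 rose with the offset, where 19.1% of genes fell and 20% rose. There 16 of the 19 calls held, Ctsd at -0.72 ± 0.08 (edgeR adjusted p = 6.43e-06) and Mcoln1 at -0.39 ± 0.05 (edgeR adjusted p = 1.64e-05) among them. Ctsh (-0.18, edgeR adjusted p = 0.13), Npc2 (-0.10, edgeR adjusted p = 0.26) and Atp6v0d1 (-0.05, edgeR adjusted p = 0.42) were no longer called. Ctsl (-0.21, edgeR adjusted p = 0.031), Naglu (-0.29, edgeR adjusted p = 0.0023) and Lamp2 (-0.18, edgeR adjusted p = 0.0091) were called lower with the offset only.

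**Figure D5:**
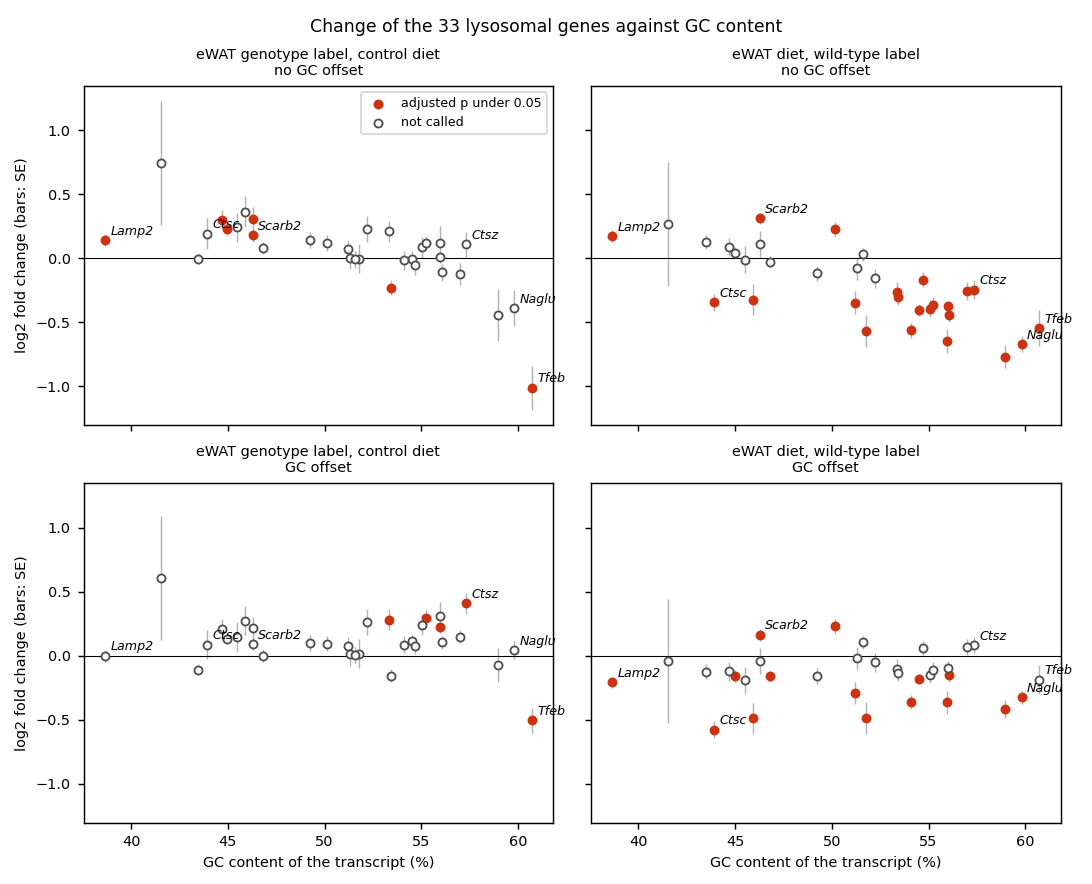
Log2 fold change of the 33 lysosomal genes (y, with SE bars) against GC content of the transcript (x, %), for the genotype label on the control diet (left, knockout over wild type) and for diet in the wild-type label (right, ketogenic over control), without (top) and with (bottom) an offset for GC content; red points have an edgeR adjusted p under 0.05. The downward slope of the upper panels (rho -0.70 and -0.75) is flat in the lower panels (0.03 and 0.01), which the offset brings about by construction.

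Members with and without CACGTG in the whole RefSeq promoter, from 250 bases before to 50 after the start, were set side by side. In the wild-type label 8 of 11 members with the letters fell and none rose, and 10 of 17 without them fell and 2 rose. In the knockout label the counts were 5 of 11 falling, and 9 of 17 falling with 2 rising. Under the GC offset 5 of 11 with the letters and 7 of 17 without them fell in the wild-type label, and 6 of 11 and 9 of 17 in the knockout label. The median diet change was -0.38 with the letters and -0.25 without in the wild-type label, and -0.23 and -0.18 in the knockout label. Median GC content was 53.4% and 52.2%.

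The comparison of genotype labels asks whether the deletion named in the labels goes with lysosomal gene levels. On the control diet, 5 of 33 members were higher in eWAT libraries labelled knockout, where 4.41% of 16746 genes were, and 2 were lower, where 11.6% were. The median log2 fold change of the members, knockout over wild type, was 0.09, against 0.01 over all genes. Txnip itself was higher under the knockout label in these libraries, so the direction is that of the label. Tfeb had the largest change of a called member: its 7 libraries labelled knockout lay at 2.93 to 6.09 CPM, below all 7 labelled wild type at 6.41 to 11.5 CPM, as for 3.27% of all genes, and it fell by 1.01 ± 0.17 (edgeR adjusted p = 0.0032). With the GC offset the fall was 0.51 ± 0.09 (edgeR adjusted p = 0.0069). Atp6v0d1 fell by 0.23 ± 0.06 (edgeR adjusted p = 0.017), from 101 to 126 CPM to 87.5 to 109 CPM.

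The members that rose were small in change, and their libraries overlapped. Ctsl, an endopeptidase, was at 451, 568 and 604 CPM in the wild-type label and at 568, 705 and 747 CPM in the knockout label and rose by 0.30 ± 0.08 (edgeR adjusted p = 0.016). Ppt1 was at 93.7, 100.3 and 111 CPM against 109, 116 and 134 CPM and rose by 0.23 ± 0.05 (edgeR adjusted p = 0.0064). Gla rose by 0.31 ± 0.09 (edgeR adjusted p = 0.032), Scarb2 by 0.18 ± 0.05 (edgeR adjusted p = 0.028) and Lamp2 by 0.14 ± 0.05 (edgeR adjusted p = 0.044). Each of these 3 calls was lost when single libraries of either label were left out, Lamp2 for 10 of the 14 libraries, Gla for 7 and Scarb2 for 3, with adjusted p-values (edgeR) of up to 0.099, 0.068 and 0.064. Over the members rho between GC content and this change was -0.70. Of the 7 calls Tfeb alone held with the GC offset, which called Glb1 (0.28), Cd63 (0.29), Ctsz (0.41) and Mcoln1 (0.22) higher instead; with that offset 2.47% of genes were higher and 4.23% lower. Macrophage markers gave 1 rise and 3 falls of 15, with summed levels of 1564 to 2033 CPM and 1501 to 2364 CPM. Adipocyte markers gave 0 rises and 5 falls of 15 (median -0.25), endothelial markers 4 rises of 10 and dissociation-stress genes 4 falls of 10. These became 1 fall, 3 rises and 1 fall with the GC offset, and 0 macrophage markers were called. The part of these cell types was not tested.

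On the ketogenic diet, 2 members were higher in eWAT libraries labelled knockout and none was lower, where 1.48% of 15225 genes were higher and 1.88% lower (3.36% in all). No member was lower without overlap, against 0.256% of genes. Ctss was at 48.6, 62.3 and 77.3 CPM in the wild-type label and at 62.5, 101 and 172 CPM in the knockout label, with overlap, and rose by 0.69 ± 0.18 (edgeR adjusted p = 0.043). Scarb2 was at 248, 263 and 298 CPM against 284, 301 and 335 CPM and rose by 0.17 ± 0.04 (edgeR adjusted p = 0.039). Txnip was again higher under the knockout label, at 2014 to 2704 CPM against 1364 to 2192 CPM. Both calls held with the GC offset, under which 1.58% of genes were higher and 1.76% lower. Each call lay near the threshold and was lost when any 1 of several libraries was left out. The call of Ctss was lost without wild type 2, 4, 5, 6, 7 or 8 or knockout 1, 2, 3, 4 or 6, with adjusted p-values (edgeR) of up to 0.083, and that of Scarb2 without wild type 2, 3, 4, 5 or 7 or knockout 1, 3, 4, 6 or 8, with up to 0.084. Without knockout 6, the highest library for Ctss and for summed macrophage markers (2046 CPM), the change of Ctss was 0.54 (edgeR adjusted p = 0.069). Atp6v0d2 had the largest change of the members, 0.90 ± 0.29 (edgeR adjusted p = 0.097), and was not called. Of all members 27 had a positive and 6 a negative fold change, with a median of 0.12 against -0.0024 over all genes, and 12 of 33 had an unadjusted p under 0.05 where 18.9% of genes did. Macrophage markers had a median change of 0.38 in the same comparison, with 1 of 15 called (Mrc1, the mannose receptor, at 0.28), and their part was not tested.

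Whether the effect of the genotype label differed between the diets was tested as an interaction in 1 fit of the 4 eWAT groups. Tfeb was called, with a difference of 1.19 ± 0.21 on the log2 scale (edgeR adjusted p = 0.0024), its knockout-label change being -1.01 on the control diet and 0.17 on the ketogenic diet. With the GC offset the difference was 0.67 ± 0.15 (edgeR adjusted p = 0.024). Naglu was called at 0.49 ± 0.14 (edgeR adjusted p = 0.028), was not called with the GC offset (0.04, edgeR adjusted p = 0.87), and lost its call without wild type 1, wild type 3 or knockout 5 of the control diet (0.44, 0.46 and 0.44). Gaa, at 0.58 ± 0.21, was not called (edgeR adjusted p = 0.085). Mcoln1 was not called without the offset (-0.07) and was called with it, at -0.29 (edgeR adjusted p = 0.028). The background was 8.31% of 17140 genes, 6.96% upwards and 1.35% downwards, and 0.735% upwards and 0.56% downwards with the GC offset. An unadjusted p under 0.05 was found for 8 members and 23.1% of genes.

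In macrophage-labelled libraries on the control diet none of the 33 members was called between genotype labels by edgeR, where 14 of 17067 genes (0.082%) were, 0.0293% higher and 0.0527% lower. With the GC offset no member was called, against 0.0234% of genes higher and 0.0117% lower. Of the members 4 had an unadjusted p under 0.05, against 9.97% of genes, and DESeq2 called Ctsh, an aminopeptidase. Ctsh was at 65.1, 69.0 and 89.9 CPM in the wild-type label and at 43.4, 55.2 and 63.7 CPM in the knockout label, which did not overlap, as for 1 more member and 0.574% of genes in that direction, and its change was -0.46 ± 0.11 (edgeR adjusted p = 0.21). The change of Ctsc was 0.46 ± 0.15 (edgeR adjusted p = 0.45), at 45.0 to 91.9 CPM against 75.1 to 110.4 CPM.

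Among ketogenic macrophage-labelled libraries, where 4 of 6 libraries are of doubtful label, edgeR called no member and 0 of 17067 genes (0%) between the labels. An unadjusted p under 0.05 was found for 7 members and 3.05% of genes, and DESeq2 called Atp6v0d2. Atp6v0d2 was at 13.0, 7.98 and 10.3 CPM in the libraries labelled wild type 1, 2 and 3 and at 6.76, 3.58 and 4.57 CPM in those labelled knockout 1, 2 and 3. These did not overlap, with a change of -1.06 ± 0.25 (edgeR adjusted p = 1). Ctss was at 44.6, 35.3 and 34.1 CPM against 31.1, 20.2 and 24.2 CPM, also without overlap, and its change was -0.59 ± 0.16 (edgeR adjusted p = 1). In all, 10 members were lower in the libraries labelled knockout without overlap, where 4.29% of genes were. Summed macrophage markers were also lower there, at 440 to 529 CPM against 572 to 685 CPM, and their part was not tested. Without the 4 doubtful libraries, which leaves 1 library per label that is assumed to vary like the other groups, the changes were -0.60 ± 0.89 for Atp6v0d2 and -0.13 ± 0.37 for Ctss, and no member was called. The difference between the diets in the genotype effect was called for no member and 0 of 18566 genes (edgeR), and 5 members had an unadjusted p under 0.05, against 3.91% of genes; DESeq2 called none of the members.

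For diet, macrophage-labelled libraries of both genotype labels were pooled, since the labels are in doubt. On the ketogenic diet 5 members were higher, where 14.3% of 17573 genes were, and 8 were lower, where 16.1% were. The median of the members was -0.07 against -0.02 over all genes. Neu1, a sialidase, was at 110.5 to 122 CPM and 109.9 to 126 CPM on the control diet in the wild-type and knockout labels. The ketogenic libraries were at 155, 148 and 149 CPM and at 174, 133 and 150.3 CPM. All 6 ketogenic libraries were above all 12 of the control diet, and Neu1 rose by 0.38 ± 0.05 (edgeR adjusted p = 1.62e-05). Lipa, at 99.1 to 149 CPM and 137 to 154 CPM against 201, 178 and 188 CPM and 196, 158 and 177 CPM, also rose without overlap, by 0.41 ± 0.08 (edgeR adjusted p = 0.0011). These were the 2 members that rose without overlap, where 4.77% of all genes did. Psap (0.25 ± 0.07, edgeR adjusted p = 0.0077) and Scarb2 (0.24 ± 0.05, edgeR adjusted p = 0.0019) rose with overlapping libraries.

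Of those that fell, Grn did so without overlap, at 408 to 504 CPM and 412 to 454 CPM on the control diet against 367, 397 and 374 CPM and 361, 358 and 376 CPM, by 0.25 ± 0.05 (edgeR adjusted p = 0.0013), the 1 member to do so where 3.63% of genes did. Ctss fell by 0.71 ± 0.15 (edgeR adjusted p = 0.0020), Hexa by 0.33 ± 0.05 (edgeR adjusted p = 0.000182), Gusb, the beta-glucuronidase, by 0.20 ± 0.04 (edgeR adjusted p = 0.0015), Ctsl by 0.23 ± 0.06 (edgeR adjusted p = 0.0059), Naglu by 0.25 ± 0.07 (edgeR adjusted p = 0.0085) and Npc2 by 0.17 ± 0.06 (edgeR adjusted p = 0.027). Npc2 lost its call without ketogenic knockout 2, and Atp6v1h, a pump subunit that rose by 0.13, without ketogenic wild type 1. Man2b1 fell by 0.19 (edgeR adjusted p = 0.046), a call lost for 14 of the 18 libraries when left out singly. Summed macrophage markers moved with them: 13 of 15 fell, and the control-diet library wild type 4 was apart from the rest at 1869 CPM. Without that library 12 of the 13 members remained called, and the part of macrophages was not tested. Within the wild-type label Neu1 alone was called (0.35, edgeR adjusted p = 0.030), and 623 genes in all. Within the knockout label 14 members were called, 9 of them among the 13, and 3583 genes in all. Shares of all genes tested are not given for these single-label fits, so their member counts have no background beside them. Scarb2 rose and Grn, Hexa and Man2b1 fell with diet in macrophage-labelled libraries as in both labels of eWAT, each against its own controls. Naglu and Ctss, lower in macrophage-labelled libraries, were called lower in eWAT in the wild-type label only, and Npc2 in the knockout label only. With the GC offset Naglu was called lower in both eWAT labels (-0.32 and -0.29). The share of all genes that moved alike in both tissue labels was not counted. Neu1 and Psap rose in macrophage-labelled libraries and fell in eWAT of the wild-type label. With the GC offset their rises held, whereas their changes in that eWAT label became 0.07 and 0.06 and were not called. The offset also ended the calls of Hexa in wild-type-labelled eWAT, Npc2 in knockout-labelled eWAT and Man2b1 in macrophage-labelled libraries.

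Other genes of the same compartment, counted from lists of genes that are not members, were set beside the diet result in eWAT and the shares of all genes given above for it (27 and 19.7% falling, 26.8 and 19.8% rising). Of 31 other lysosomal hydrolases tested 19 fell and 4 rose in the wild-type label, and 20 fell and 4 rose in the knockout label, with medians of -0.24 and -0.23. Pla2g15, a lysosomal phospholipase, fell by 1.09 and 0.80, and Acp5, an acid phosphatase of osteoclasts and macrophages, fell by 1.07 and 0.83. Hydrolases that fell with the GC offset numbered 12 and 17, and those that rose 0 and 2, where 18.9 and 19.1% of genes fell. Of 24 other membrane proteins and transporters 13 and 9 fell and 5 and 5 rose, with the GC offset 9 and 9 fell and 3 and 4 rose, and Laptm5, a lysosomal membrane protein of blood cells, fell by 0.98 and 0.56. Of 15 other proton pump genes 6 and 4 fell and 3 and 1 rose, with medians of -0.03 and -0.01, and with the GC offset 5 and 4 fell and 0 and 3 rose. Of 11 genes of sorting to lysosomes 3 and 2 fell and 3 and 3 rose, with and without the offset, which is near the share of all genes. Vps35, a subunit of retromer, rose by 0.35 and 0.27. A mixed list of 20 genes held the TFEB family and the mTORC1 machinery that holds TFEB in the cytoplasm. It also held the autophagy genes Sqstm1, Uvrag, Wipi1 and Map1lc3b, and Ppp3cb. Of the 20, 5 and 3 fell and 5 and 5 rose, and with the GC offset 2 and 2 fell and 8 and 7 rose. There Lamtor1, which anchors that machinery to lysosomes, fell by 0.64 and 0.54, and Ppp3cb, a subunit of the phosphatase calcineurin that acts on TFEB, rose by 0.52 and 0.28. In the genotype comparison on the control diet Atp6v0c, the proton-carrying ring subunit, fell by 0.86.

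The members differed in how even they were within a group. The median coefficient of variation over the 4 eWAT groups was 4.7% for Lamp2, 5.4% for Tpp1 and 5.7% for Scarb2. It was 45.9% for Atp6v0d2, 19.9% for Tfeb, 18.6% for Lgmn and 18.2% for Ctss.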

How the data were processed

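The authors deposited 1 table of read counts per library with unstranded and strand-wise count columns; per the submitters' processing notes, reads were trimmed with Trim Galore 0.6.0 and aligned with STAR 2.7.8a to mm10. For the annotation release the sources used here give no name. GENCODE vM21 gave a symbol, position, length and GC content to 55144 of 55471 genes. For eWAT, whose kit keeps strand, counts came from whichever strand column had the larger total; for macrophage-labelled libraries the unstranded column was used, where overlapping and antisense genes cannot be told apart. Rows that name no gene were left out: reads outside genes were 6.80 to 8.70% and 7.89 to 9.39% per library in eWAT and macrophage-labelled libraries, multimapping reads 7.92 to 9.69% and 4.77 to 6.64%, and unmapped reads 3.78 to 6.02% and 9.73 to 17.1%. No replicates were copies of each other.

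Counts were filtered with filterByExpr (minimum count 10, minimum total 15), scaled by TMM and tested with edgeR 4.0.16 in R 4.3.3 (robust quasi-likelihood fit, two-sided), with Benjamini-Hochberg adjustment over all genes tested and a threshold of 0.05; errors of log2 fold changes are SE. Each comparison used its own groups, and the interactions all 4 groups of a tissue. CPM levels, and the overlap of libraries read from them, were scaled over all libraries of a tissue before the filter. The script was tested on simulated data with 200 changed genes. Alternatives were DESeq2 1.42.0 (size factors and Wald test), limma 3.58.1 voom with sample weights, no low-count filter, a replicate block, an offset for GC content (lowess span 0.3), all 4 groups in 1 fit, and leaving out each library; leaving out the 4 libraries of doubtful label was chosen after seeing the data. Statistics are given for at most the 12 called members of lowest adjusted p per comparison, for the largest changes where few or none were called, and for members whose call an alternative ends or turns. The members and lists were chosen with earlier results of these data known.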

Additional observations from a re-analysis of the deposited data

Results flagged for a closer look

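Among 198 combinations of member and group, 14 held a library far from the rest of its group by Dixon's test, in 8 libraries of 6 groups; chance sets apart about 1 in 20 groups. In wild-type-labelled control-diet eWAT, library 7 was lowest for Ctsl (450.9 CPM, others 540.1 to 603.9), Ctsz (109.9 CPM, others 140.1 to 162.5) and Gusb (66.53 CPM, others 86.71 to 95.68). In the same group library 4 was highest for Ctss (120.7 CPM, others 70.23 to 83.49), Lipa (183.2 CPM, others 99.72 to 127.6), Npc1 (64.75 CPM, others 54.01 to 58.39) and Atp6v0d2 (22.06 CPM, others 2.63 to 10.18). In knockout-labelled control-diet eWAT, Ctsh was lowest in library 7 (66.06 CPM, others 79.08 to 88.48) and Neu1 highest in library 6 (36.86 CPM, others 24.1 to 29.34). Neu1 was lowest in ketogenic wild-type library 2 (19.72 CPM, others 23.96 to 27.01). Ketogenic knockout library 6 was highest for Ctss (171.6 CPM, others 62.45 to 111.6) and Psap (1891 CPM, others 1415 to 1637). In control-diet macrophage-labelled libraries Ppt1 was lowest in knockout 3 (92.43 CPM, others 102.1 to 107.5) and Atp6v0d1 highest in wild type 2 (91.56 CPM, others 75.28 to 80.43).

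The effect of the genotype label in eWAT differed between the diets, by the interaction test, for Tfeb (1.193 on the log2 scale) and Naglu (0.4887). With the GC offset the difference was 0.67 for Tfeb, which was still called, and 0.04 for Naglu (edgeR adjusted p = 0.87), whose call was also lost without control-diet wild type 1, wild type 3 or knockout 5.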

How the results depend on the processing

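With the GC offset, without and with a replicate block, Lamp2 turned to -0.0013 and -0.0022 in the control-diet genotype comparison; in the wild-type diet comparison Lamp2 turned to -0.21 and -0.21, Ctsz to 0.083 and 0.12, Neu1 to 0.069 and 0.064, and Psap to 0.062 and 0.059. For the genotype label on the control diet, 7 members and 2677 genes were called; 4 members were called with no low-count filter, and 1121 and 724 genes with the GC offset without and with the block. On the ketogenic diet, 2 members and 512 genes were called; DESeq2 called 1041 genes, voom 1 member, no filter 0 members and 331 genes, the replicate block 5 members and 1586 genes, and block with GC offset 5 and 1599. In the eWAT interaction (2 members, 1425 genes) voom called 4 members, and the GC offset 222 genes, or 255 with the block.

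In macrophage-labelled libraries the genotype comparison on the control diet (0 members, 14 genes) gave 115 genes and 1 member with DESeq2, 33 genes with voom, 6 with the GC offset and 9 with all 4 groups fitted together. On the ketogenic diet (0 and 0) DESeq2 gave 15 genes and 1 member, no filter 103 and 2, the block 7 and 1, block with GC offset 3 and 1, and leaving out the doubtful libraries 2 genes. Diet within the wild-type label gave 623 genes and 1 member, against 5348 and 13. The interaction (0 genes) gave 17 with DESeq2, 6 with voom, 7 with the block and 6 with block and GC offset. The cause of these shifts was not tested.

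Leaving out 1 library gave 4 to 10 members (1925 to 3287 genes) for genotype on the control diet, 0 to 3 (205 to 788) on the ketogenic diet, 21 to 24 (7830 to 8510) and 17 to 22 (5899 to 6517) for diet in the wild-type and knockout labels, and 1 to 4 (1070 to 2048) for the interaction. In macrophage-labelled libraries it gave 4 to 18 genes and 0 to 1 genes for genotype on the control and ketogenic diets, 11 to 16 members (4044 to 6391 genes) for diet and 0 to 4 genes for the interaction. Of single-gene results, 1134 kept direction and call, 73 lost and 2 gained a call, and 0 reversed when a library was left out; under the other settings 593 kept both, 73 lost and 8 gained a call, and 10 reversed. Same-numbered libraries deviated together (r over 0.1) in 4 of 7 and 7 of 8 pairs for genotype in eWAT. For diet in eWAT they did so in 3 of 7 and 3 of 7 pairs. For genotype in macrophage-labelled libraries they did so in 5 of 6 and 2 of 3. Samples correlated best with their own number in 1, 5, 2, 1, 3 and 3 of these. The main fits did not take the numbers as pairs, and the replicate block was fitted as an alternative, with the counts given above. Whether the numbers mark pairs was not tested. With the shallowest library at 17.4 M gene counts, members of a few CPM such as Atp6v0d2 were limited by the spread between libraries.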
